A study of Mus musculus with 15 samples.

Results

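Melanin is made in pigment cells inside melanosomes, organelles related to lysosomes. Tyrosinase (Tyr) starts the pathway from tyrosine, Tyrp1 and Dct act on later intermediates, Pmel builds the fibrils on which melanin is laid down, and membrane transporters set the pH and ion content of the organelle. In the posterior eye both the retinal pigment epithelium (RPE), which derives from the neuroectoderm of the optic cup, and the melanocytes of the choroid, which derive from the neural crest, carry melanosomes, and Mitf, a basic helix-loop-helix leucine zipper factor, drives many of these genes in both cell types. The genes described here are 10 named genes of this system, 10 of the 55421 genes listed in the count files. They are the enzymes Tyr, Tyrp1 and Dct, the melanosomal matrix proteins Pmel and Mlana, the transporters Slc45a2, Slc24a5 and Oca2, and the transcription factors Mitf and Otx2. Each matched 1 Ensembl identifier, and 10 of 10 passed the filters on variance and low counts that left 18979 genes for testing.

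Eyecups were from mice 2.5 months of age on the C57BL/6J background, in 3 genotypes of Tmem135: 4 WT mice, 6 mice heterozygous for the mutant allele (FUN025/+) and 5 homozygous mice (FUN025/FUN025). The eyecup is the back of the eye with the neural retina taken out, so it holds RPE, choroid and sclera, and the eyecups of a mouse made 1 library. FUN025 is a germline mutation carried by every cell, so RPE and choroid cannot be separated by genotype, and in bulk tissue fewer pigment cells and less RNA per cell cannot be told apart. Mice of both sexes were used, and the labels do not give the sex of each mouse. Reads were counted per gene and are given as CPM, that is, scaled to equal library sizes after adjustment by the trimmed mean of M-values (TMM).

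Total counts were 18094977 to 20029919 in WT libraries, 10903183 to 13456349 in FUN025/+ libraries and 11053535 to 15038383 in FUN025/FUN025 libraries, so each WT library was deeper than each mutant library, and sequencing depth and the WT genotype cannot be told apart. The RPE markers Rgr, Ttr and Rpe65 were high in all libraries, with Rpe65, the visual cycle isomerase, at 1486 to 2616 CPM. The summed level of 12 rod markers, from the removed neural retina, was highest in WT replicate 2. Among corneal and lens markers Krt5 ranged from 124 to 1667 CPM, with the highest summed marker level in FUN025/+ replicate 6. Of the 12 rod, 12 skeletal muscle and 7 anterior segment markers, 0 were at 0 in all libraries of a genotype. Tmem135 itself was at 59.8 to 66.2 CPM in WT, 66.1 to 86.3 CPM in FUN025/+ and 82.5 to 94.0 CPM in FUN025/FUN025 eyecups, and edgeR's quasi-likelihood test gave log2 fold changes over WT of 0.23 in FUN025/+ (adjusted p = 0.0248, lost without WT replicate 2 or 4) and 0.47 in FUN025/FUN025 eyecups (adjusted p = 1.48e-04).

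To show what the pigment genes share at their start sites, the 250 bases before each RefSeq start were searched for the core of the M-box, CATGTG on either strand, the hexamer known to be bound by Mitf. RefSeq start-site entries (GRCm38.p6) were matched for 7 of the 10 genes, and those of Pmel, Mlana and Slc45a2 were not used here. The hexamer was found for 6 of the 7 (Tyr, Tyrp1, Dct, Slc24a5, Oca2 and Otx2), and for 13.8% of the 27025 mouse genes in the same table. The windows of 30 bases below are read in the direction in which the hexamer is CATGTG, which stands in capitals.
Tyr: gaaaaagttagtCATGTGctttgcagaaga
Tyrp1: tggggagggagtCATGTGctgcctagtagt
Dct, nearer hexamer: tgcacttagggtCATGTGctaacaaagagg
Dct, farther hexamer: ctttattgggctCATGTGtcccagccaagc
Slc24a5: cttatgctgaatCATGTGagcagtctcctt
Oca2: gaaaattccagcCATGTGtagcaagctcaa
Otx2: tatgggcccaagCATGTGaactaattgtat
In Tyr the hexamer lay on the gene's strand at −21 to −16 from the start (chr7:87493528-87493533), and in Tyrp1 it lay at −46 to −41 (chr4:80834167-80834172). Dct held it on its own strand at −150 to −145 (chr14:118052391-118052396) and on the other strand at −232 to −227 (chr14:118052473-118052478). The longer form TCATGTGCT, chosen after these windows were seen and searched on both strands, was found in Tyr, Tyrp1 and Dct and in 0.359% of all genes, and each match holds the hexamer above. Slc24a5 (−13 to −8, chr2:125068114-125068119), Oca2 (−186 to −181, chr7:56239573-56239578) and Otx2 (−124 to −119, chr14:48667763-48667768) held the hexamer on the opposite strand. The hexamers of Tyrp1 and Otx2 lie inside the GENCODE spans of these genes, as do the RefSeq starts used for them. The palindromic E-box CACGTG was in 0 of the 7 genes and in 6.86% of all genes, and TAATCC, a site of Otx-type homeodomain factors, was in Dct, Mitf and Otx2 and in 7.21% of all genes. TGACG, the core of the cAMP response element, was in Mitf and Otx2 and in 19.8% of all genes. A match is a run of letters and not evidence that a factor was bound in these eyecups.

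The full windows of Tyr (chr7:87493513-87493762) and Dct (chr14:118052247-118052496), both on the minus strand of GRCm38.p6, are given because the first enzyme of the pathway had the lowest adjusted p of the 10 genes against WT and the other was the most abundant of the 10 transcripts in counts. Both read 5′ to 3′ toward the start site, with the M-box hexamer in capitals on whichever strand it lies.
Tyr: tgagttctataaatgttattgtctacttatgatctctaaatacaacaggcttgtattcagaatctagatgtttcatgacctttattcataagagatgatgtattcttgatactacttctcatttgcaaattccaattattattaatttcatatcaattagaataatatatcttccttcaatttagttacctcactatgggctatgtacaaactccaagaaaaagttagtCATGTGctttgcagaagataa
Dct: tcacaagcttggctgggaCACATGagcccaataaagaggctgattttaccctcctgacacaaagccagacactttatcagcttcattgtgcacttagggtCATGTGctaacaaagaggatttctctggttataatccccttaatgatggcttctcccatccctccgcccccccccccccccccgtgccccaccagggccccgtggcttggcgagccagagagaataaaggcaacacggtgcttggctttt

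Together the 10 genes took 0.901% to 1.13% of all counts in a library, with medians of 0.972% in WT, 1.04% in FUN025/+ and 0.984% in FUN025/FUN025 eyecups. Their levels were compared per length, as CPM per kilobase of merged exons. Pmel was the highest in WT eyecups at 862 CPM per kilobase, followed by Tyrp1 at 772, Dct at 656, Mlana at 330.0, Slc24a5 at 167, Otx2 at 89.5, Tyr at 58.2, Slc45a2 at 58.1, Oca2 at 42.7 and Mitf at 22.5. Pmel and Tyrp1 ranked 26 and 28 among 18958 genes with a length, and Mitf, the regulator, ranked 2433. The order at the top depended on the length used. Per kilobase of the longest transcript Dct was the highest at 1118 CPM, 1026 to 1249 over the 15 mice, ahead of Pmel at 928 and Tyrp1 at 802, and Otx2 was at 146. The matrix protein and the later enzymes were the 3 highest under both lengths.

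With merged exons, the ranges over the 15 mice of 4 of the 9 neighbouring pairs in this order overlapped. Pmel exceeded Tyrp1 in 12 of 15 mice, and Tyr exceeded Slc45a2 in 13 of 15, with WT means that differed by a ratio of 1.00. Slc45a2 exceeded Oca2 in 15 of 15 mice although their ranges overlapped. Tyrp1 exceeded Dct in 15 of 15 mice with merged exons, whereas with the longest transcript each mouse's Dct value lay above the Tyrp1 range of 686 to 958 CPM per kilobase. The other 5 neighbouring pairs did not overlap in any mouse, and WT ratios between them were 1.54 to 1.99.

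In either mutant genotype, 0 of the 10 genes passed an adjusted p of 0.05 against WT in edgeR's quasi-likelihood fit, and the mutant and WT values overlapped for each of them. Among all 18979 genes, 13.7% passed between FUN025/+ and WT and 14.0% between FUN025/FUN025 and WT, and the values did not overlap for 10.9% and 14.8%. At an unadjusted p under 0.05 the same 2 genes, Tyr and Mitf, stood out in each comparison, where 28.8% and 28.6% of all genes did. DESeq2's Wald test called 1 of the 10 (Tyr) in FUN025/+ eyecups and 0 in FUN025/FUN025 eyecups, and limma-voom called 0 in both. The median log2 fold change of the 10 genes was 0.05 in FUN025/+ and 0.00 in FUN025/FUN025 eyecups, beside 0.00 and −0.01 over all genes. Both comparisons use the same 4 WT mice, so agreement between them is not independent evidence.

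**Figure D1:**
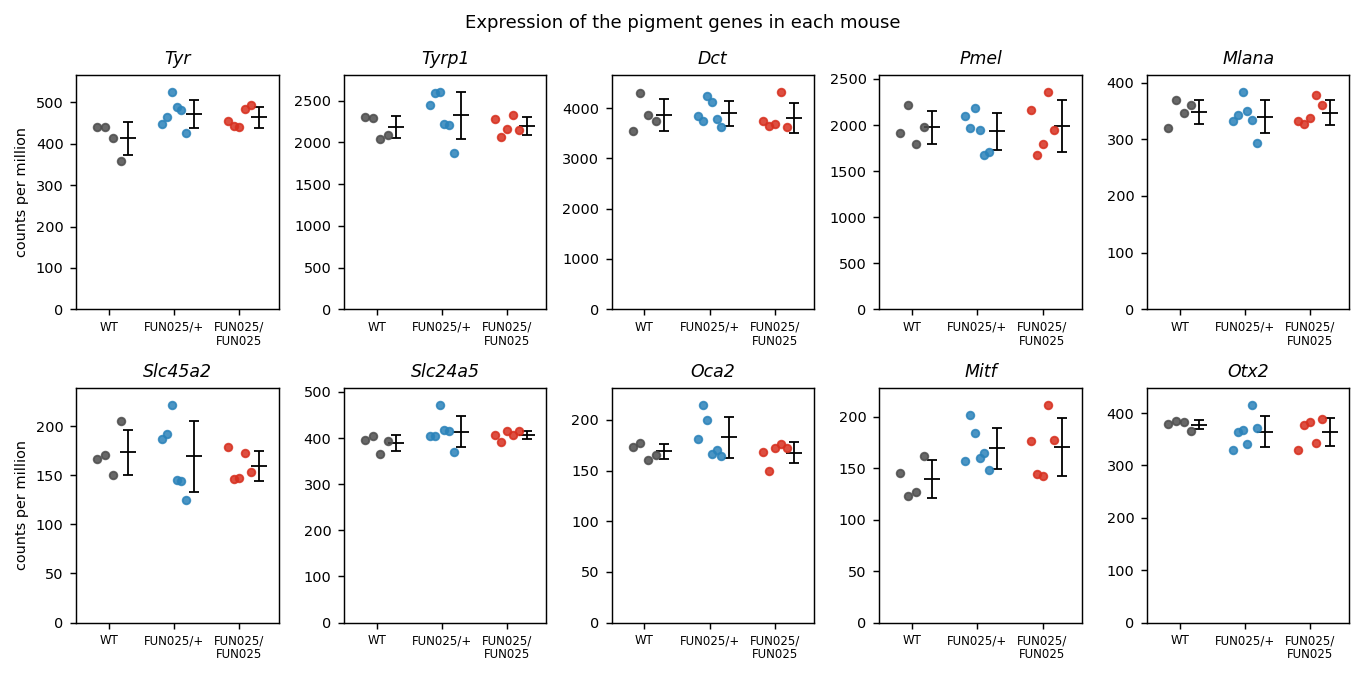
Level of each pigment gene in every mouse, in CPM (y axes start at 0), by Tmem135 genotype, with 1 point per mouse and the mean ± SD beside the points (n = 4 WT, 6 FUN025/+ and 5 FUN025/FUN025 mice). The points of the 3 genotypes overlap in every panel, and those of Tyr and Mitf lie higher on average in both mutant genotypes.

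Tyr encodes tyrosinase, the rate-limiting enzyme of melanin synthesis (chr7:87424771-87493512 of GRCm38). It was at 441, 442, 414 and 357 CPM in the WT mice, and at 455, 443, 441, 484 and 495 CPM in the FUN025/FUN025 mice. The FUN025/+ mice ranged from 426 to 525 CPM with a median of 473 CPM. WT replicate 4 was the lowest of the 15 mice, and the highest WT mice lay among the lower mutant mice. The log2 fold change against WT was 0.19 (SE 0.067, adjusted p = 0.0636 by edgeR's quasi-likelihood test) in FUN025/+ and 0.17 (SE 0.069, adjusted p = 0.123) in FUN025/FUN025 eyecups. The 95% intervals run from 3.63% to 25.9% above WT and from 1.36% to 24.0% above WT. Under 30 alternative settings the adjusted p in FUN025/+ eyecups ranged from 0.0363 to 0.353 and passed 0.05 in 6, among them the fits without WT replicate 1 (0.0495) and without FUN025/+ replicate 6 (0.0383). Tyr lies 1.65 Mb from Tmem135 on chromosome 7, so alleles of Tyr and Tmem135 would be inherited together, and whether the flanking sequence differs between genotypes was not tested.

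Tyrp1 encodes tyrosinase-related protein 1, which acts late in the eumelanin pathway and stabilizes tyrosinase (chr4:80834123-80851719). The WT mice were at 2303, 2293, 2042 and 2093 CPM, and the FUN025/FUN025 mice were at 2284, 2068, 2163, 2323 and 2143 CPM. In FUN025/+ mice the range was 1867 to 2605 CPM with a median of 2337 CPM. This genotype held both the lowest and the highest mouse of all 15. The log2 fold change was 0.09 (95% interval −0.08 to 0.26, adjusted p = 0.481 by edgeR's quasi-likelihood test) in FUN025/+ and 0.01 (−0.17 to 0.19, adjusted p = 0.958) in FUN025/FUN025 eyecups.

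Dct encodes dopachrome tautomerase (chr14:118012790-118052244). Its WT levels were 3549.5, 4306, 3865 and 3749.6 CPM, and those of FUN025/FUN025 mice were 3739.5, 3639.6, 3678, 4321 and 3616 CPM. The FUN025/+ mice ranged from 3618 to 4249 CPM with a median of 3816 CPM. In FUN025/FUN025 eyecups a single mouse, replicate 4, was above the other mice, at a level close to that of the highest WT mouse. The log2 fold changes of 0.01 (SE 0.070, adjusted p = 0.952 by edgeR's quasi-likelihood test) and −0.03 (SE 0.073, adjusted p = 0.851) were smaller than their standard errors.

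Pmel, the fibril-forming matrix protein (chr10:128704195-128720238), was at 1909, 2222, 1799 and 1976 CPM in WT and at 2168, 1674, 1794, 2359.5 and 1951 CPM in FUN025/FUN025 mice. Among FUN025/+ mice the lowest was at 1679.6 and the highest at 2184 CPM, with a median of 1958 CPM. The spread among FUN025/FUN025 mice (SD 277 CPM, n = 5) was far wider than the difference of their mean from WT (1989 against 1977 CPM). Against WT the changes were −0.03 (adjusted p = 0.851 by edgeR's quasi-likelihood test) in FUN025/+ and 0.01 (adjusted p = 0.964) in FUN025/FUN025 eyecups. Of its exon bases, 6.07% lie under exons of Cdk2 and Dgka on the opposite strand.

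Mlana encodes melan-A, a small melanosome membrane protein needed for Pmel processing (chr19:29697824-29708634). It was at 321, 369, 346 and 360.0 CPM in WT and at 333, 326, 338, 378 and 361 CPM in FUN025/FUN025 mice. FUN025/+ mice ranged from 294 to 384 CPM with a median of 338 CPM, again holding the extremes of the 15 mice. Its log2 fold changes were −0.04 (adjusted p = 0.736 by edgeR's quasi-likelihood test) and −0.01 (adjusted p = 0.962), and the 95% intervals allow at most 11.4% below WT in FUN025/+ and 9.81% above WT in FUN025/FUN025 eyecups.

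The 3 transporters are known from oculocutaneous albinism, and each raises or balances the ion content of the melanosome. Slc45a2 (chr15:11000721-11029233) had the widest spread of the 10 genes, with a coefficient of variation of 21.6% among FUN025/+ mice. It was at 167, 171, 150.4 and 205 CPM in WT and at 179, 146, 147, 173 and 153 CPM in FUN025/FUN025 mice. In FUN025/+ mice it ranged from 125 to 221 CPM with a median of 166 CPM. The FUN025/+ range held all WT and FUN025/FUN025 values. The log2 fold changes were −0.03 (SE 0.144, adjusted p = 0.904 by edgeR's quasi-likelihood test) in FUN025/+ and −0.12 (SE 0.149, adjusted p = 0.645) in FUN025/FUN025 eyecups, and the interval of the latter ran from 26.3% below to 15.1% above WT, the lowest bound of the 10 genes.

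Slc24a5, a potassium-dependent sodium-calcium exchanger (chr2:125068124-125088677), was the steadiest of the 10 genes in FUN025/FUN025 mice, with a coefficient of variation of 2.30%. It was at 395, 405, 365 and 395 CPM in WT and at 406, 392, 414, 407 and 415 CPM in FUN025/FUN025 mice. FUN025/+ mice ranged from 370.0 to 471 CPM with a median of 410.3 CPM. All FUN025/FUN025 mice lay within the FUN025/+ range, and WT replicate 3 was below all mutant mice. Changes against WT were 0.09 (adjusted p = 0.3197 by edgeR's quasi-likelihood test) and 0.06 (adjusted p = 0.520). Exons of Myef2 on the opposite strand cover 39.5% of the exon bases of Slc24a5, and since the strand setting of the counting is not given in the sources used here, part of its count could belong to Myef2. Myef2 itself was at 324 CPM in WT and had log2 fold changes of −0.01 and −0.02.

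Oca2, which encodes the melanosomal anion channel P (chr7:56239760-56536518), was at 173, 177, 161 and 165 CPM in WT and at 169, 149, 172, 177 and 173 CPM in FUN025/FUN025 mice. Among FUN025/+ mice the range was 164 to 215 CPM with a median of 176 CPM. FUN025/+ replicates 2 and 3 were above all other mice and FUN025/FUN025 replicate 2 was below them. The log2 fold changes against WT were 0.11 (adjusted p = 0.304 by edgeR's quasi-likelihood test) and −0.01 (adjusted p = 0.947). Oca2 is 32.6 Mb from Tmem135 on the same chromosome.

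Mitf (chr6:97807052-98021349) had the largest fold changes of the 10 genes. It was at 146, 123, 127 and 162 CPM in WT and at 176, 145, 143, 211 and 177 CPM in FUN025/FUN025 mice. FUN025/+ mice ranged from 148 to 201 CPM with a median of 162 CPM. The WT mice at 146 and 162 CPM lay among the mutant values and the other WT mice lay below all of them. The log2 fold change was 0.28 (SE 0.118, adjusted p = 0.131 by edgeR's quasi-likelihood test) in FUN025/+ and 0.29 (SE 0.122, adjusted p = 0.132) in FUN025/FUN025 eyecups. The intervals, 1.87% to 44.5% above WT and 1.98% to 46.5% above WT, reached the highest bounds of the 10 genes. With the rod marker level as a covariate these changes were 0.14 (adjusted p = 0.536) and 0.15 (adjusted p = 0.497). The summed CPM of the 12 rod markers was 364 to 2592 in WT, 189.5 to 803 in FUN025/+ and 189 to 526 in FUN025/FUN025 eyecups, and the part of rod RNA in the Mitf values was not tested. Counts per gene do not separate the Mitf isoforms of RPE and melanocytes, which start from different promoters.

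Otx2, a homeodomain factor that acts with Mitf in the RPE and is not a gene of melanocytes (chr14:48657677-48673819), was at 379, 384, 382 and 366 CPM in WT and at 329, 378, 383, 342 and 388 CPM in FUN025/FUN025 mice. For FUN025/+ mice the range was 329 to 415 CPM with a median of 366 CPM. The WT mice were close together (SD 8.47 CPM, n = 4), and mutant mice lay both above and below them. The log2 fold changes of −0.05 (SE 0.062) and −0.05 (SE 0.064) had adjusted p = 0.623 and 0.6252 (edgeR). Some 3.98% of its exon bases are shared by position with Otx2os1 and Gm49154.

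**Figure D2:**
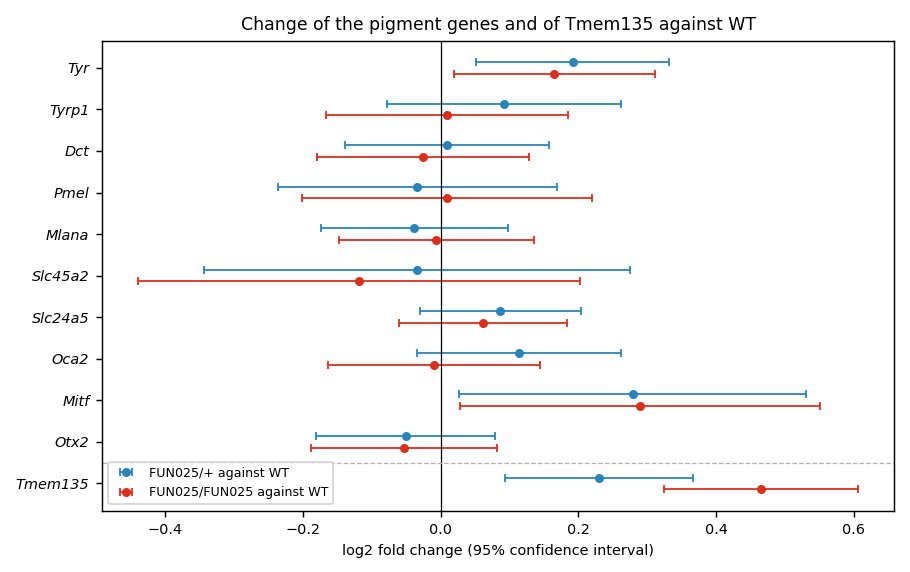
Log2 fold change against WT of each pigment gene and of Tmem135, with 95% confidence intervals from edgeR's quasi-likelihood fit of all 15 mice, for FUN025/+ (blue) and FUN025/FUN025 (red) eyecups. Intervals of Tyr and Mitf lie above 0 before adjustment for multiple tests, those of the other 8 pigment genes include 0, and those of Tmem135 lie above 0.

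Read as limits, the 95% intervals of the 10 genes ran between 26.3% below and 46.5% above WT, and 0 of the 20 intervals held a doubling or a halving. A rise of 10% lay inside 15 of them and a fall of 10% inside 10 of them. Of 11 skeletal muscle markers tested, 3 fell in each mutant genotype against WT (27.3%, beside 13.7% and 14.0% of all genes). Between the mutant genotypes 0 passed, beside 0.522% of all genes. The summed CPM of the list, which overlapped between genotypes, was 4207 to 7809 in WT, 2237 to 5834 in FUN025/+ and 3477 to 4319.6 in FUN025/FUN025 eyecups. With the muscle level as a covariate the change of Tyr in FUN025/+ eyecups was 0.14 on the log2 scale (adjusted p = 0.353, edgeR), and the part of muscle RNA in the Tyr values was not tested.

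Between FUN025/FUN025 and FUN025/+ eyecups 0 of the 10 genes passed an adjusted p of 0.05 by edgeR's quasi-likelihood test, DESeq2 or limma-voom, and 0 passed an unadjusted p of 0.05. Among all genes 0.522% passed the adjusted and 6.23% the unadjusted threshold. The largest difference was that of Oca2, at −0.12 (SE 0.066, adjusted p = 0.906), with FUN025/FUN025 eyecups from 16.7% below to 1.12% above FUN025/+. On the log2 scale the others lay between −0.08 and 0.04. In a limma fit of the trend with the number of mutant alleles, 0 of the 10 genes reached an adjusted p of 0.01, beside 2.05% of the genes tested. Its largest slope was that of Mitf, 0.14 per allele on the log2 scale (adjusted p = 0.167), the 1 gene of the 10 with an unadjusted p under 0.05, beside 25.4% of all genes. The slope of Tyr was 0.08 per allele (adjusted p = 0.200).

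Differences between mice of a genotype were partly shared among the pigment genes, and less so without FUN025/+ replicates 3 and 6. After the genotype means were removed from log2 CPM, 36 of the 36 pairs among the 9 genes other than Otx2 had a positive Pearson r over the 15 mice, from 0.15 for Tyr with Slc45a2 to 0.82 for Tyrp1 with Oca2 (median 0.55). These correlations describe these libraries, which share tissue dissection and scaling, and carry no test. Tyrp1 with Slc45a2 (0.81), Dct with Mlana (0.78) and Mlana with Slc24a5 (0.74) were among the closest pairs. Otx2 stood apart, with r from −0.64 with Pmel to 0.17 with Tyr and above 0 for 2 of its 9 pairs. FUN025/+ replicates 3 and 6 were the mice with the highest and lowest mean of the 10 genes. Replicate 6 also stood apart in other markers, with the highest summed level of the 7 anterior segment markers (3796 CPM against a FUN025/+ median of 798) and of the 6 Schwann cell markers (704 against 445), and the lowest of the rod markers (189.5 against 262) and of the 8 endothelial markers (812 against 1011) among FUN025/+ mice. The part of these markers in the shared differences was not tested. Without FUN025/+ replicates 3 and 6, 34 of the 36 pairs were positive and the median r was 0.28.

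**Figure D3:**
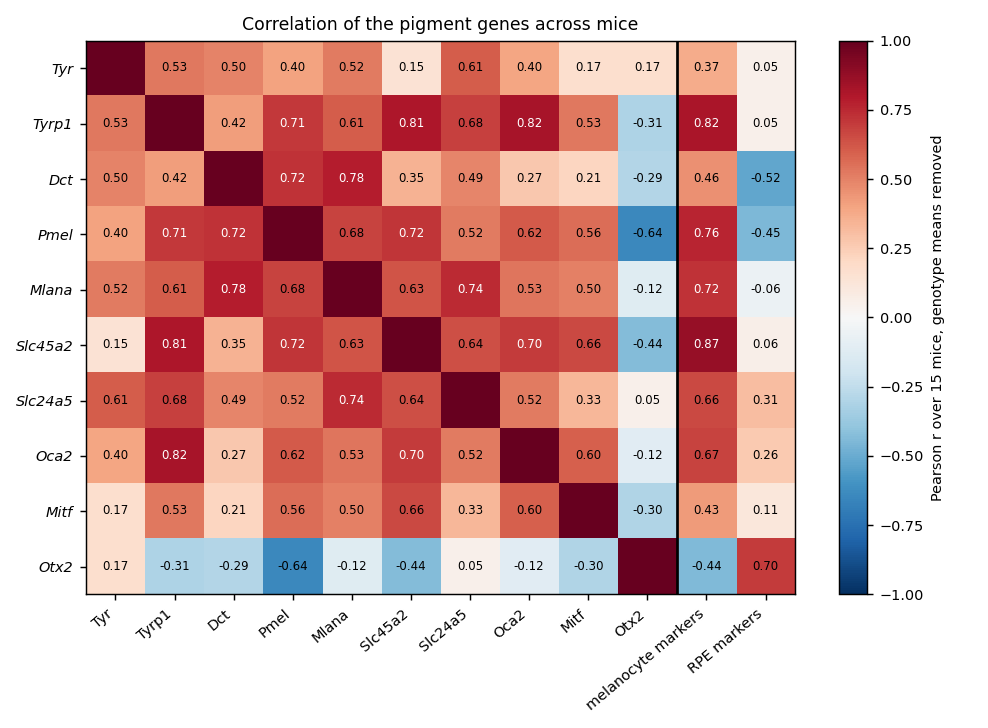
Pearson r over 15 mice between the pigment genes, and between each gene (rows) and the mean log2 CPM of 6 melanocyte markers and of 14 RPE markers (the 2 columns right of the line), after genotype means were removed. The block of the 9 genes other than Otx2 is positive throughout (0.15 to 0.82), and Otx2 is positive with the RPE markers (0.70) and negative with the melanocyte markers (−0.44).

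To ask which cell type these differences between mice followed, each gene was compared with the mean log2 CPM of 14 RPE markers, among them Rpe65, Rgr and Ttr. None of the 10 correlations passed after adjustment over the 10 genes, in a permutation test with 100000 resamples. Otx2 had the strongest (r = 0.61, permutation p = 0.0156, adjusted p = 0.156, and Spearman's rho = 0.45, permutation p = 0.0993, adjusted p = 0.445), and without the 2 mice farthest from the median RPE level r was 0.44. Pmel (r = −0.46) and Dct (r = −0.45) had the lowest values, each with a permutation adjusted p = 0.311. With genotype means removed the correlation of Otx2 alone had an adjusted p under 0.05 (r = 0.70, permutation adjusted p = 0.0394), and r was −0.52 for Dct, −0.45 for Pmel and 0.31 for Slc24a5. The permutation shuffled the centred values over all 15 mice and made no allowance for the means removed. Its p-values can therefore be too small, and whether Otx2 passes with such an allowance was not tested.

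The same comparison with 6 melanocyte markers (Kit, Sox10, Ednrb, Mc1r, Pax3 and Trpm1), chosen after the RPE result was seen, gave 4 genes with an adjusted p under 0.05 over 10 relations. Slc45a2 had r = 0.84 (permutation p = 1.0e-04, adjusted p = 0.001) and rho = 0.83 (permutation p = 2.6e-04, adjusted p = 0.0026), and r was 0.77 without the 2 mice farthest from the median. Pmel had r = 0.71 (permutation p = 0.00261, adjusted p = 0.013) and rho = 0.74 (permutation adjusted p = 0.011), and r was 0.58 without the 2 farthest mice. For Mlana (r = 0.69, permutation adjusted p = 0.0139, rho = 0.52) and Tyrp1 (r = 0.63, permutation adjusted p = 0.0306, rho = 0.49) the adjusted p of rho was 0.135, and r fell to 0.46 for each without the 2 farthest mice, so these relations rest partly on those mice. Tyr had r = −0.01 and Mitf 0.07. With genotype means removed 6 genes passed, with r of 0.87 for Slc45a2, 0.82 for Tyrp1, 0.76 for Pmel, 0.72 for Mlana, 0.67 for Oca2 (permutation adjusted p = 0.0121) and 0.66 for Slc24a5 (permutation adjusted p = 0.0165). The r was 0.46 for Dct, 0.43 for Mitf, 0.37 for Tyr and −0.44 for Otx2, which did not pass. These centred p-values too made no allowance for the means removed and can be too small.

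The count of genes that passed was 2 without FUN025/+ replicate 3 and 2 without FUN025/+ replicate 6. Trpm1, a cation channel gene under Mitf control that is not confined to melanocytes, was the most abundant of the 6 markers (618 to 1045 CPM), and without it in the list 2 genes passed, Slc45a2 (r = 0.87, permutation adjusted p = 6.0e-04) and Tyrp1 (r = 0.64, permutation adjusted p = 0.0483). The summed CPM of the 6 markers was 1276 to 1597 in WT, 1164 to 1405 in FUN025/+ and 1134 to 1542 in FUN025/FUN025 eyecups.

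**Figure D4:**
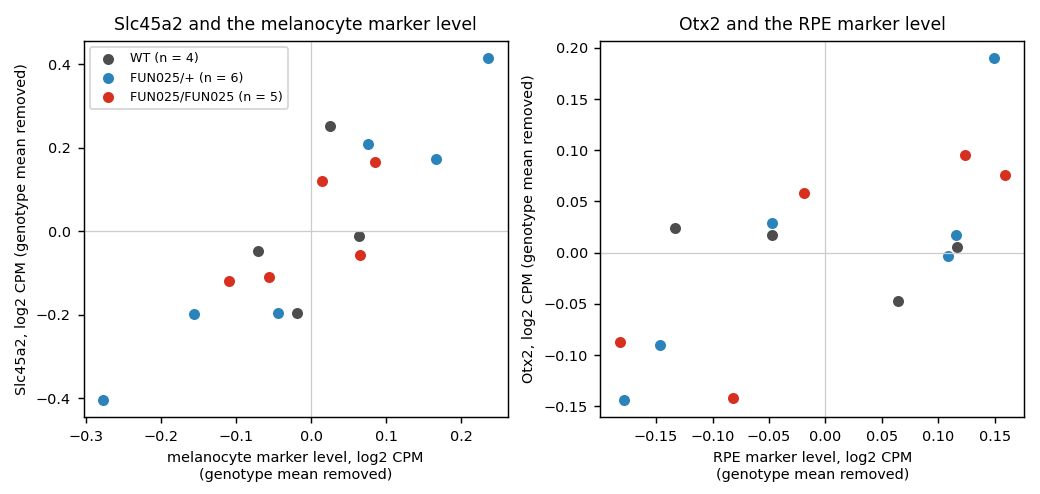
Left, Slc45a2 against the mean log2 CPM of 6 melanocyte markers, and right, Otx2 against that of 14 RPE markers, with 1 point per mouse and genotype means removed from both axes. Slc45a2 climbs with the melanocyte level (r = 0.87) with FUN025/+ mice at both ends, and Otx2 climbs with the RPE level (r = 0.70).

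Outside the 10 genes, the genes whose genotype-centred levels were most like the mean of the 10 over the 15 mice were Bmyc (r = 0.87), Mcoln3 (0.85), Fstl4 (0.85), Arl2bp (0.84), Krt10 (0.83), Gabarapl1 (0.83), Gjb6 (0.83), Ddhd2 (0.83), Syngr1 (0.82) and Poglut1 (0.81), among 17577 genes with a mean of at least 1 CPM. Mcoln3 is an endolysosomal cation channel whose mutant alleles in varitint-waddler mice alter coat colour, and Gabarapl1 is an autophagy protein. Being the nearest of 17577 genes, they were selected for their r. Without FUN025/+ replicate 3 only 1 of these 10 stayed among the 10 nearest, and without FUN025/+ replicate 6 there were 3.

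Around the 10 genes, 40 genes of melanosome biogenesis and transport were examined, and 40 were tested. In FUN025/+ eyecups 2 passed upward and 3 downward against WT, and in FUN025/FUN025 eyecups again 2 upward and 3 downward, 12.5% in each, close to the 13.7% and 14.0% of all genes. Their median log2 fold changes were 0.01 and 0.02. Atp7a, the copper pump that loads tyrosinase with its cofactor, rose in both genotypes. It was at 20.5 to 33.3 CPM in WT, 36.0 to 46.1 CPM in FUN025/+ and 42.8 to 54.8 CPM in FUN025/FUN025 eyecups, with no overlap between WT and mutant mice. Its log2 fold changes were 0.61 (SE 0.116, adjusted p = 0.00283 by edgeR's quasi-likelihood test) and 0.79 (SE 0.120, adjusted p = 4.15e-04), and it passed under 30 of 30 alternative settings in each comparison.

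Bloc1s1, a subunit of the BLOC-1 complex that sorts cargo to melanosomes, fell by 0.95 (adjusted p = 0.00900 by edgeR's quasi-likelihood test) and by 0.73 (adjusted p = 0.0415) on the log2 scale, at low levels of 4.09 to 5.79 CPM in WT and 1.69 to 4.29 CPM in FUN025/+ eyecups. In FUN025/FUN025 eyecups it was at 2.30 to 3.81 CPM, and this call was lost in 7 of the 15 fits that leave out 1 mouse, those without WT replicate 1, 3 or 4 or without FUN025/FUN025 replicate 1, 2, 3 or 4. Cd63, a tetraspanin of melanosomes and lysosomes, fell by 0.22 (adjusted p = 0.0370) and Hps6, a BLOC-2 subunit, fell by 0.40 (adjusted p = 0.0415) in FUN025/+ eyecups, but they passed in only 7 and 5 of the 15 such fits. Both were lost without WT replicate 2, 3 or 4, FUN025/+ replicate 1, 5 or 6 or FUN025/FUN025 replicate 1, Cd63 also without FUN025/+ replicate 4, and Hps6 also without FUN025/+ replicate 2 or 3 or FUN025/FUN025 replicate 2. In FUN025/FUN025 eyecups Mreg (melanoregulin) fell by 0.30 (adjusted p = 0.0253) and Slc24a4, an exchanger related to Slc24a5, fell by 1.10 (adjusted p = 0.0209). Slc24a4 was at 1.75 to 6.35 CPM in WT and 1.27 to 2.09 CPM in FUN025/FUN025 eyecups, and its call was lost without WT replicate 2 and without FUN025/FUN025 replicate 2 or 5, while that of Mreg was lost without WT replicate 2 or 3 or FUN025/FUN025 replicate 5. The remaining calls, named after their values were seen, were Rab7 in FUN025/+ (log2 fold change 0.14) and Gpr143, the ocular albinism receptor, in FUN025/FUN025 eyecups (0.22), which passed in 6 and 8 of the 15 fits. Rab7 was lost without WT replicate 2, 3 or 4, FUN025/+ replicate 2, 3, 5 or 6 or FUN025/FUN025 replicate 2 or 3, and Gpr143 without WT replicate 1, 2 or 4, FUN025/+ replicate 5 or FUN025/FUN025 replicate 2, 3 or 5.

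Of 16 transcription factors of pigment cells beside Mitf and Otx2, 16 were tested. In FUN025/+ eyecups 1 passed upward and 1 downward, and in FUN025/FUN025 eyecups 1 upward and 3 downward, with medians of −0.21 and −0.19. The shares were 12.5% and 25.0%, beside the 13.7% and 14.0% of all genes. Tfeb, a relative of Mitf that drives lysosomal genes, fell by 0.24 (adjusted p = 0.0245 by edgeR's quasi-likelihood test) and by 0.30 (adjusted p = 0.00770), and Creb1, which mediates cAMP signals to the Mitf promoter, rose by 0.17 (adjusted p = 0.0126) and 0.17 (adjusted p = 0.0193). The Tfeb call in FUN025/+ eyecups was lost without WT replicate 3 or 4, and that of Creb1 in FUN025/FUN025 eyecups without WT replicate 4. Sox10, a neural crest factor of melanocytes and Schwann cells, fell by 0.32 in FUN025/FUN025 eyecups (adjusted p = 0.0255), where it was at 128 to 153 CPM beside 156 to 194 CPM in WT, and Lef1, a Wnt pathway factor, fell by 0.42 (adjusted p = 0.0187). The Sox10 and Lef1 calls were both lost without WT replicate 3 or 4, and that of Sox10 also without FUN025/FUN025 replicate 2 or 3. Among the 6 melanocyte markers 0 passed in FUN025/+ eyecups and 1, Sox10, passed in FUN025/FUN025 eyecups (16.7%, close to the 14.0% of all genes).

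Of 16 ligands, receptors and signal transducers of pigment cells, 14 were tested (Pomc and Nrg1 did not pass the filter). In FUN025/+ eyecups 0 passed upward and 1 downward, and in FUN025/FUN025 eyecups 1 upward and 2 downward, with medians of −0.09 and −0.10, which are shares of 7.14% and 21.4%, beside 13.7% and 14.0% of all genes. Gna11, a Gq-class subunit of endothelin signalling, fell by 0.16 (adjusted p = 0.0188 by edgeR's quasi-likelihood test) and by 0.18 (adjusted p = 0.0109), with the call in FUN025/+ eyecups lost without WT replicate 3. Gnas, the Gs subunit downstream of Mc1r, fell by 0.27 (adjusted p = 0.0105), and Met, the receptor of hepatocyte growth factor, rose by 0.29 (adjusted p = 0.0170) in FUN025/FUN025 eyecups, the latter not without WT replicate 4. Kit and Mc1r, which carry the signals of stem cell factor and melanocortin, did not pass in either genotype. Of the RPE markers, 1 of 14 passed in FUN025/+ (7.14%, beside 13.7% of all genes: Trpm3, upward by 0.25), and in FUN025/FUN025 eyecups Trpm3 (0.29) and Slc6a20a (0.38) rose. The call of Trpm3 in FUN025/+ was lost without WT replicate 3 and that of Slc6a20a without WT replicate 4. Of 8 endothelial markers, which mark vessels such as those of the choroid, 3 fell in FUN025/+ (37.5%, Esam, Cdh5 and Plvap) and 5 in FUN025/FUN025 eyecups (62.5%, with Pecam1 and Tie1), beside 13.7% and 14.0% of all genes. In FUN025/+ eyecups Plvap passed in only 2 of the 15 fits that leave out 1 mouse, and Esam and Cdh5 were lost without WT replicate 3 or 4. Pecam1 and Tie1 were lost in FUN025/FUN025 eyecups without WT replicate 4. The summed CPM of the list was 1024 to 1191 in WT, 812 to 1117 in FUN025/+ and 741 to 916 in FUN025/FUN025 eyecups. The part of endothelial RNA in the values of the pigment genes was not tested. Between FUN025/FUN025 and FUN025/+ 0 genes of the pathway, RPE, melanocyte and endothelial lists passed by edgeR's quasi-likelihood test, beside 0.522% of all genes.

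**Figure D5:**
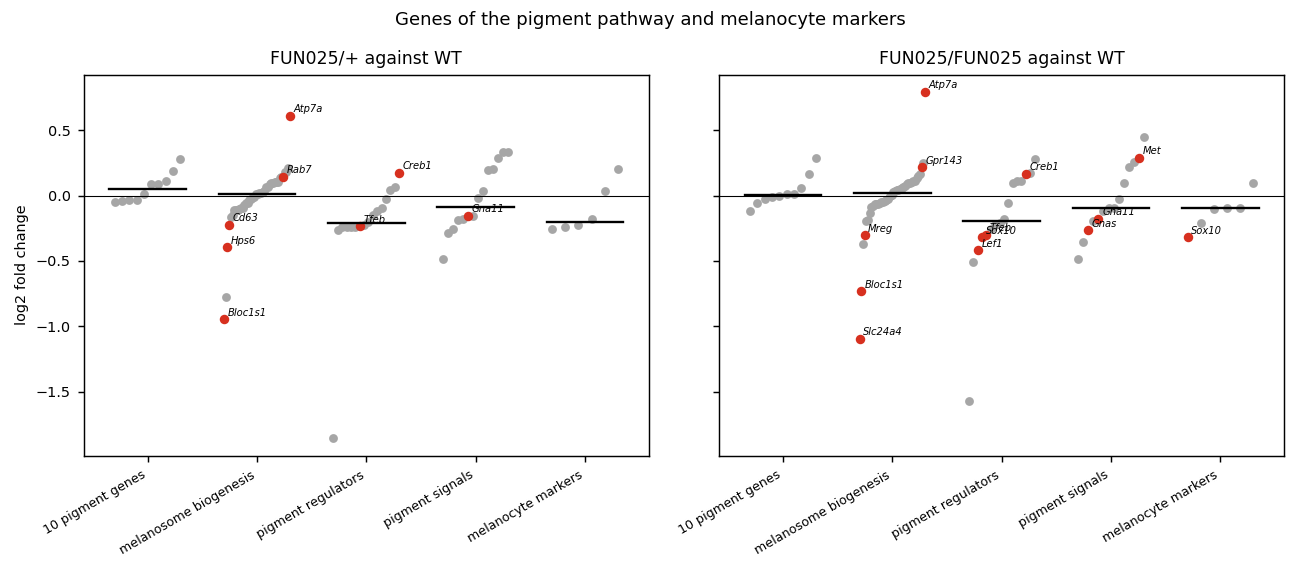
Log2 fold change against WT (y axis) of each tested gene of the 10 pigment genes, 3 pathway lists and the melanocyte markers, in FUN025/+ (left) and FUN025/FUN025 (right) eyecups, with red for an adjusted p under 0.05, grey for the others and a line at each list's median. The 10 pigment genes lie within 0.3 of 0 with no red point, and Atp7a is the highest called gene in both panels.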

How the data were processed

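Posterior eyecups without neural retina were profiled by RNA-seq in 15 mice, with 1 library per mouse. The authors deposited raw read counts per gene for each library. Per the submitters' processing notes, FastQC 0.11.8, Trimmomatic 0.39, HISAT2 2.1.0, SAMtools and featureCounts 2.0.0 were used with GRCm38. The strand setting and annotation release of the counting are not given in the sources used here, and 55240 of the 55421 listed genes matched GENCODE M21, from which coordinates, exon lengths and overlaps were taken.

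Here, genes with the lowest 15% of variance were removed (47108 left), and filterByExpr left 18979 genes. Libraries were scaled by TMM. All 15 mice were fitted together with edgeR 4.0.16 (quasi-likelihood, robust, R 4.3.3), with Benjamini-Hochberg adjustment over all genes tested and a threshold of 0.05. The trend on mutant alleles used limma 3.58.1 on log2 CPM (prior count 2) with a threshold of 0.01. Correlations used two-sided permutation tests. Further tools were DESeq2 1.42.0, Python 3.11.15, numpy 2.4.6, pandas 2.3.3, scipy 1.17.1 and matplotlib 3.10.9. The fits and the permutation test were tested on simulated data.

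Groups came from the sample labels. The 10 genes and all gene lists were chosen with earlier results of these data known. The text names the 10 genes, Tmem135, the 10 genes most like them and, of each other list, at most 4 genes with the smallest adjusted p, apart from genes said to be named after their values were seen. Mice are separate animals, so p-values measure the spread between mice. Pairs of libraries of 1 genotype differed beyond sampling noise (chi-square per gene 3.23 to 18.9), and 0 pairs were identical. A count of 3 equals 0.15 to 0.28 CPM, which covers counting error only, and the lowest count of the 10 genes in a library was 1519. Alternatives were 3 other scalings, DESeq2 and limma-voom, other filters, pairwise fits, the replicate number as a block, marker levels as covariates, the longest transcript as length and leaving out each mouse. The melanocyte covariate, the melanocyte correlations and the fit without libraries high in rod or anterior segment markers were chosen after seeing the data. Some marker genes of the lists are not reported here.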

Additional observations from a re-analysis of the deposited data

Results flagged for a closer look

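Over 54 groups of values, 2 held a mouse far from the others by Dixon's criterion, which chance meets in about 1 in 20 groups. Dct in FUN025/FUN025 eyecups was highest in replicate 4, at a log2 CPM of 12.08 with the next mouse at 11.87, and the gap was 0.811 of the range of the 5 mice (above the critical value for 5). Oca2 in FUN025/FUN025 eyecups was lowest in replicate 2, at 7.22 with the next mouse at 7.40, a gap of 0.723 of the range, also above it.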

How the results depend on the processing

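The count of pigment genes that passed between FUN025/+ and WT (0) became 1, Tyr, with upper-quartile scaling, with DESeq2's Wald test, with the melanocyte marker level as a covariate and without the 5 libraries highest within their genotype in the mean log2 CPM of rod or anterior segment markers (WT replicate 2, FUN025/+ replicates 1 and 6, FUN025/FUN025 replicates 3 and 4), and 0 to 1 when each mouse was left out (1 without WT replicate 1 or FUN025/+ replicate 6). By summed CPM the highest also included WT replicate 3 and FUN025/FUN025 replicates 1 and 2, in place of FUN025/FUN025 replicates 3 and 4, and that choice was not run. The counts of the other comparisons were 0 under each alternative run. The cause was not tested. Same-numbered mice did not deviate together (13 pairs, correlations −0.38 to 0.13, 1 above 0.1). No pairing by number was seen, although these correlations cannot exclude one. With the replicate block 0 pigment genes passed in each comparison, and the block moved the count of melanosome genes from 5 to 3 (FUN025/FUN025 against WT), of regulators from 2 to 1 (FUN025/+) and of signalling genes from 1 to 2 (FUN025/+) and 3 to 5 (FUN025/FUN025). Over all alternatives the melanosome counts ranged from 2 to 8 and 1 to 6, those of regulators from 0 to 5 and 1 to 5, and those of signalling genes from 0 to 6 and 0 to 5.

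Small changes that passed no threshold turned sign. On the log2 scale, FUN025/+ against WT, the muscle covariate gave −0.046 for Tyrp1, −0.060 for Dct and 0.042 for Otx2. Pmel was at 0.028 with the replicate block, 0.006 with the RPE, 0.023 with the rod and 0.080 with the melanocyte covariate, and at 0.043 without the 5 libraries. Mlana was at 0.001 with the block, 0.031 with the melanocyte covariate and 0.050 without the 5 libraries, and Slc45a2 at 0.078, 0.133 and 0.020. Without each mouse in turn Dct ranged from −0.030 to 0.071, Pmel from −0.072 to 0.034, Mlana from −0.077 to 0.000 and Slc45a2 from −0.124 to 0.064. For FUN025/FUN025 against WT, the muscle covariate gave −0.099 for Tyrp1, −0.118 for Pmel and 0.023 for Otx2, the rod covariate 0.033 for Dct and 0.009 for Mlana, the melanocyte covariate 0.018 for Dct, 0.063 for Mlana, 0.067 for Slc45a2 and 0.063 for Oca2, upper-quartile scaling 0.011 for Mlana and 0.008 for Oca2, and the block 0.003 for Oca2. Leaving out each mouse gave −0.012 to 0.042 for Tyrp1, −0.069 to 0.039 for Dct, −0.052 to 0.080 for Pmel, −0.045 to 0.031 for Mlana and −0.023 to 0.030 for Oca2. Between FUN025/FUN025 and FUN025/+ Slc45a2 ranged from −0.157 to 0.013.

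The count of correlations with the RPE markers that passed (0) was 1 with genotype means removed, 4 with melanocyte markers in place of RPE markers, and 0 to 1 without each mouse (1 without WT replicate 2). Counts with genotype means removed, here and below, rest on p-values that made no allowance for those means. Over the fits without 1 mouse r ran from −0.022 to 0.282 for Tyr, −0.031 to 0.233 for Tyrp1, −0.304 to 0.075 for Mlana, −0.139 to 0.182 for Slc45a2 and −0.001 to 0.496 for Mitf. The count with the melanocyte markers (4) was 6 with genotype means removed, 2 without Mc1r or Trpm1 in the list and 2 to 4 without each mouse. Of the 23 alternatives run for these correlations, Slc45a2 passed in 23, Pmel in 22, Mlana in 19 and Tyrp1 in 16. Tyrp1 did not pass without Kit, Ednrb or Mc1r in the list. Of the 10 genes most like the pigment genes, 1 to 9 stayed among the 10 nearest without each mouse. With the longest transcript as length the WT level of Dct was 1118 in place of 656 CPM per kilobase and that of Otx2 146 in place of 89.5. Each of the 10 genes had at least 1519 counts in each library, and the part of sequencing depth in the differences between genotypes was not tested.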
